A study of Mus musculus with 14 samples.

Results

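The genes Pparg, Dgat1, Dgat2, Fabp5, Plin2, Cd36, Cpt1a, Acsl4 and Lpl, which serve the uptake, storage and burning of fatty acids, were followed through group 2 innate lymphocytes (ILC2s) of the mouse lung. They were picked by name, with earlier results of these data known. All 9 were found among the 53278 genes of the count and TPM tables of both experiments. RNA-seq was done on sorted lung ILC2s (live, lineage-, CD90.2+, CD3-), about 15000 cells per sample. In the stimulation experiment, 8 female B6 mice gave 4 unstimulated samples and 4 samples stimulated with IL-33 at 20 ng/mL. The design text describes both as 24 h cultures, although it also calls the unstimulated cells ex vivo. In the Blimp-1 experiment, 3 female ControlIL7RaCre mice (called Control) and 3 age-matched Blimp-1IL7RaCre mice (called Blimp-1-deficient) gave ILC2s that were all cultured for 72 h with IL-33 and IL-25 at 20 ng/mL each (the study's methods also name IL-2). Mice were over 6 weeks old. The Cre is driven by the IL-7 receptor alpha gene, which is active in all ILCs and in T, B and NK cells, so that the deletion of Prdm1, the gene of the transcriptional repressor Blimp-1, was not restricted to ILC2s in the animal. The comparisons addressed how these genes respond to an alarmin and to the loss of Blimp-1.

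PPARG is a nuclear receptor that pairs with RXR on DNA and is activated by fatty acids and their derivatives. In fat cells it directs the uptake and storage of fat, and in the lung it is best known for its high level in alveolar macrophages. Fatty acids enter a cell after LPL has freed them from lipoproteins and with the help of CD36, are carried by FABP5, and are joined to coenzyme A by enzymes such as ACSL4, which prefers polyunsaturated chains. DGAT1 and DGAT2 then complete triglyceride, which is kept in droplets coated by PLIN2, while CPT1A carries fatty acids towards the mitochondrion for oxidation. Activated ILC2s are known to take up fatty acids and to hold them in lipid droplets.

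Depth ranged from 10470125 counts (IL-33 stimulated replicate 3) to 32849428 in the stimulation experiment, and from 13570188 (Control replicate 2) to 76448945 in the Blimp-1 experiment. The shallowest library of each experiment stood apart from its group. In Control replicate 2, 76.8% of the counts and 93.9% of the TPM fell on 7 loci, among them mt-Rnr2, Gm26917 and Lars2, which left 3150795 counts elsewhere, and in IL-33 stimulated replicate 3 the same loci took 4.12% of counts; in the other 12 libraries their share was at most 0.941%. Each library was also the lowest of its group for 8 of the 9 genes in CPM (counts per 1000000 after TMM scaling), the exception being Lpl. The fold changes of the 9 genes are therefore given with and without them. Prdm1 was at 74.0 to 92.8 CPM in the Controls and 11.4 to 14.6 CPM in the Blimp-1-deficient libraries, with no overlap. Of 12 ILC2 markers none was at 0 in any library, but their levels were not stable. With IL-33, edgeR called 4 of the 12 higher and 7 lower, both over all libraries and without stimulated replicate 3. Thy1 went from a mean of 745 CPM unstimulated to 130 CPM with IL-33, and Il5 from 544 to 17150 CPM. For loss of Blimp-1, 0 of the 12 were called over all libraries. Once Control replicate 2 was left out, 4 rose and 3 fell. The 15 macrophage or monocyte markers summed to 213 to 493 CPM unstimulated, 173 to 442 CPM with IL-33, 111 to 608 CPM in Controls and 95.7 to 439 CPM in Blimp-1-deficient libraries, and the sums of compared groups overlapped. Without the library that stands apart, edgeR called single markers of other cell types. With IL-33, 4 of 12 macrophage or monocyte markers were lower, beside 29.7% of all genes tested. Of 7 endothelial markers 6 were lower and 1 was higher, with Pecam1 at means of 62.4 and 124 CPM over all libraries. The 7 endothelial markers summed to 97.9 to 172 CPM unstimulated and 152 to 173 CPM with IL-33. Without Blimp-1, 3 of 15 macrophage or monocyte and 2 of 6 fibroblast markers were higher, beside 8.25% of all genes tested. The 7 fibroblast markers reached 3998 CPM in Control replicate 2, against at most 645 CPM in any other library. T cell markers (6 genes) summed to 50.7 to 64.3 CPM unstimulated and 14.2 to 27.7 CPM with IL-33. The 7 epithelial markers summed to 52.7 to 82.6 and 2.55 to 5.52 CPM in these groups, mostly Epcam (means of 59.6 and 2.61 CPM). The 6 mast cell or basophil markers summed to 7.12 to 14.7 and 0 to 0.296 CPM. Unstimulated, most of that sum was Cpa3 (mean of 10.4 CPM), whereas with IL-33 Cpa3 was at a mean of 0.0259 CPM, below Mcpt8 (0.0575 CPM). Of 6 fibroblast markers tested 3 were lower with IL-33 (edgeR), and 5 without stimulated replicate 3, beside 16.1% and 29.7% of all genes. Col1a2 was at 94.8 to 192 CPM unstimulated and 41.7 to 56.8 CPM with IL-33. The 7 endothelial markers summed to 63.3 to 137 CPM in Controls and 214 to 246 CPM in Blimp-1-deficient libraries, mostly Pecam1 (means of 61.6 and 168 CPM). What part cells other than ILC2s have in the results was not tested. In bulk RNA, a change in the number of cells that use a gene and a change in RNA per cell cannot be told apart. Replicates are separate mice by the design text, while figure legends of the study speak of sorts from pooled animals, and p-values measure the spread between these samples.

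The genes lie on GRCm38 as follows (gene model, start to end). Pparg (ENSMUSG00000000440.12) is at chr6:115360951-115490399 on the plus strand, Plin2 (ENSMUSG00000028494.12) at chr4:86648386-86670060 on the minus strand and Cpt1a (ENSMUSG00000024900.5) at chr19:3322334-3385733 on the plus strand. Dgat1 is at chr15:76502015-76511953 and Dgat2 at chr7:99153658-99182719, both on the minus strand, Fabp5 at chr3:10012548-10016607 (plus), Cd36 at chr5:17781690-17888801 (minus), Acsl4 at chrX:142317993-142390535 (minus) and Lpl at chr8:68880491-68907448 (plus). All 9 are protein coding, and no exon of another gene overlaps theirs. Reads could be shared with a near copy to a small degree: 3.03% of the 75-base stretches of Fabp5 also occur in other genes (Gm6166), 0.89% of those of Lpl and 0.83% of those of Plin2 (Gm12551), against 0.07% for Cpt1a and 0% for the other 5 genes.

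Pparg, Plin2 and Cpt1a were the genes that passed the test in both experiments (in the Blimp-1 experiment, once Control replicate 2 was left out), so the 250 bases before a start site of each are shown, 5′ to 3′ on the strand of the gene. The sequences are from RefSeq (GRCm38.p6), whose promoter table held windows for 5 of the 9 genes (Acsl4, Cd36, Cpt1a, Plin2 and 3 windows of Pparg). Capitals mark AGGTCA, the half-site to which nuclear receptors such as PPARG bind, on either strand (TGACCT when on the opposite one). The Pparg window is that of the most downstream of its 3 listed starts, chr6:115421816-115422065, Plin2 is chr4:86670060-86670309 and Cpt1a is chr19:3323051-3323300.
Pparg: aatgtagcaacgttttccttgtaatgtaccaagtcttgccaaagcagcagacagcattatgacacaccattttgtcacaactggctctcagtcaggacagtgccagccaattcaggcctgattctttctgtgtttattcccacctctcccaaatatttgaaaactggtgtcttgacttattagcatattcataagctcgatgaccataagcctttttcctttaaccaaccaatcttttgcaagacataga
Plin2: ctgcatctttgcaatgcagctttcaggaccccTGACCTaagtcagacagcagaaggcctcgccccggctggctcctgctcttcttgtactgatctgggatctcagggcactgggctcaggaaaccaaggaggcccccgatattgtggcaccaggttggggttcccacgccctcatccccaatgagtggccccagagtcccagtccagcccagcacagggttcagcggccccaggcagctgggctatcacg
Cpt1a: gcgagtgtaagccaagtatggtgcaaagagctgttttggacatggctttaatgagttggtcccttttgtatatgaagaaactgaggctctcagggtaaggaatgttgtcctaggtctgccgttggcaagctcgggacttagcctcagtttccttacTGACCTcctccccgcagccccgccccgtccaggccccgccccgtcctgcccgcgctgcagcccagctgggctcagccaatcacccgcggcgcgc
The half-site stood 218 bases before the start in Plin2 and 94 bases before it in Cpt1a (counted to its leftmost base), and was not in the Pparg window shown. The other windows of Pparg held it 28 and 9 bases before their starts, that of Cd36 held it 228 bases before the start, and that of Acsl4 lacked it. AGGTCA on either strand was thus in 5 of 7 windows of these genes and in 4607 of all 32851 windows of that length (14%). Since 3 of the 7 windows are of Pparg alone, they are not separate genes, and the shares were not compared by a test. The Pparg windows with the half-site, 28 and 9 bases before their starts, hold 193 and 57 bases of Pparg exon. A direct repeat of AGGTCA with any 1 base between the copies (either strand), the arrangement on which PPARG and RXR pair, was in 11 windows of the whole table (0.0335%) and in none of these. GAAAGTG, the core of the Blimp-1 motif, was on either strand of 1317 windows (4.01%) and in none of these. A match is a description of letters, and a window without one tells nothing about binding elsewhere.

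Levels were compared between genes as TPM, which divides by gene length, rescaled to the same total after the 7 loci were left out. For Cpt1a the deposited length was 4300 bases, against 7642 bases over all its exons in the annotation used here. The deposited counts over the longer length give 72.5 ± 4.48 TPM in unstimulated ILC2s. Reads were not counted again, and a longer gene model could also hold more of them. In unstimulated ILC2s the order from high to low was Acsl4 (164 ± 10.6 TPM, SD, n = 4), Plin2 (137 ± 7.02), Cpt1a (129 ± 7.96), Pparg (90.0 ± 2.70), Dgat1 (66.0 ± 17.8), Fabp5 (36.4 ± 4.32), Cd36 (11.1 ± 4.46), Lpl (8.54 ± 3.21) and Dgat2 (3.78 ± 0.692). The libraries of 3 neighbouring pairs overlapped, Plin2 with Cpt1a, Pparg with Dgat1, and Cd36 with Lpl. With IL-33 the order became Dgat1 (310 ± 80.7 TPM, n = 4), Acsl4 (235 ± 18.0), Plin2 (184 ± 47.1), Pparg (105 ± 20.2), Fabp5 (64.8 ± 14.1), Dgat2 (40.2 ± 3.59), Cpt1a (28.8 ± 6.59), Cd36 (7.77 ± 3.10) and Lpl (4.96 ± 2.44). Here the libraries overlapped for each neighbouring pair apart from Pparg with Fabp5, Dgat2 with Cpt1a, and Cpt1a with Cd36. Dgat1 thus moved from the fifth place to the first, Dgat2 from the last to the sixth, and Cpt1a from the third to the seventh. With the counts unchanged and the longer length, Cpt1a would be in the fourth place unstimulated, below Pparg, and again in the seventh with IL-33.

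In the Blimp-1 experiment Dgat1 had the highest mean as well, but in Control replicate 1 Plin2 (435 TPM) was above Dgat1 (357 TPM). Over all 3 Controls, neighbours in the order of means overlapped, apart from Fabp5 with Dgat2. The Blimp-1-deficient libraries gave Dgat1 564 ± 50.7 TPM (SD, n = 3), Acsl4 326 ± 22.8, Plin2 275 ± 17.0, Pparg 107 ± 7.52, Fabp5 86.9 ± 6.13, Cpt1a 72.9 ± 5.03, Dgat2 31.8 ± 12.5, Cd36 13.7 ± 8.87 and Lpl 3.85 ± 2.54, and only Cd36 and Lpl overlapped as neighbours. In Controls without replicate 2 (n = 2) the values were Dgat1 447 ± 128, Plin2 418 ± 24.1, Acsl4 314 ± 9.94, Pparg 168 ± 2.38, Cpt1a 99.1 ± 1.61, Fabp5 81.7 ± 3.01, Dgat2 15.2 ± 4.90, Cd36 11.3 ± 9.58 and Lpl 4.41 ± 3.79. Control replicate 2 itself gave 126 TPM for Dgat1, 86.7 TPM for Plin2 and 54.6 TPM for Pparg after rescaling, and 3.35 TPM for Pparg as deposited. The experiments differed in time, cytokines and mice, and levels across them were set side by side without a test.

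**Figure D1:**
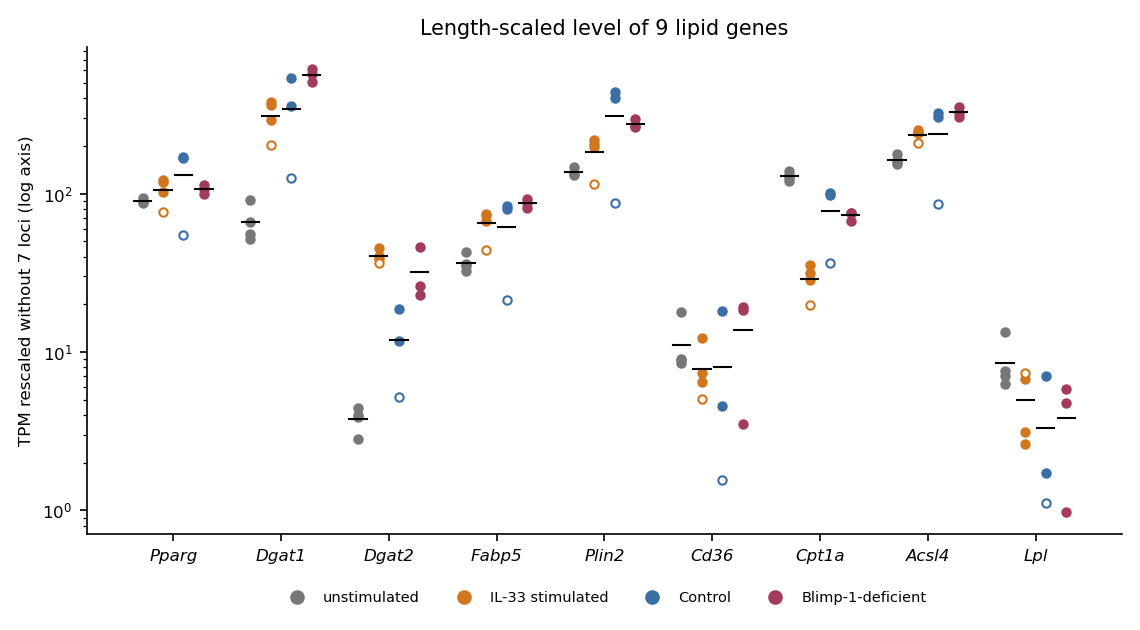
TPM of the 9 genes (rescaled without 7 loci, log axis) in every library, coloured by group, with black lines at group means; open circles are IL-33 stimulated replicate 3 and Control replicate 2. Dgat2 goes from 3.78 TPM unstimulated to 40.2 TPM with IL-33 on average, while Cpt1a goes from 129 to 28.8 TPM.

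With IL-33 the largest changes among the 9 genes were those of Dgat2 and Dgat1. Dgat2 was 13.2-fold and Dgat1 5.86-fold higher than in unstimulated ILC2s, Fabp5 2.21-fold, Acsl4 1.79-fold, Plin2 1.67-fold and Pparg 1.45-fold higher, whereas Cpt1a was 3.58-fold lower. Cd36 and Lpl did not pass the test. By the quasi-likelihood test of edgeR on 15466 genes (Benjamini-Hochberg), 6 of the 9 genes rose and 1 fell at an adjusted p below 0.05. Over all genes tested 16.2% rose and 16.1% fell. Without IL-33 stimulated replicate 3 the counts were again 6 and 1, beside 27.5% and 29.7% of 15733 genes. The median log2 fold change of the 9 genes was 0.74, against 0.06 for all genes tested. Because the 9 genes were chosen with earlier results of these data known, these counts and medians are not a test of them as a set.

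Pparg, the receptor, stood at 77.2, 74.3, 77.9 and 73.4 CPM in unstimulated replicates 1 to 4, and at 122.6, 122.3, 80.6 and 113.0 CPM in the stimulated ones. The groups did not overlap, but stimulated replicate 3 was close to the highest unstimulated library. The log2 fold change was 0.54 (SE 0.13, 95% interval 0.24 to 0.83, edgeR adjusted p = 0.015), and 0.66 (SE 0.05, adjusted p = 2.99e-06) without stimulated replicate 3. The call was lost without stimulated replicate 2 (0.48, edgeR adjusted p = 0.0507), without a filter on low counts (0.52, edgeR adjusted p = 0.0589) and on the TPM scale (0.18, limma adjusted p = 0.46), where the median of all genes also lay lower (-0.25).

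Dgat2, 1 of the 2 enzymes that form triglyceride, changed the most of the 9 genes. It was at 3.68, 3.35, 3.87 and 2.43 CPM unstimulated and at 42.4, 42.0, 40.1 and 51.7 CPM with IL-33, a wide gap that includes stimulated replicate 3. Its log2 fold change was 3.72 (SE 0.18, 95% interval 3.31 to 4.14, edgeR adjusted p = 1.06e-05), and 3.78 without stimulated replicate 3. Dgat1, the other enzyme, was at 60.6, 43.9, 47.6 and 77.7 CPM unstimulated and at 399, 312, 221 and 413 CPM with IL-33. Again no library overlapped, and the log2 fold change was 2.55 (SE 0.26, 95% interval 1.96 to 3.14, edgeR adjusted p = 0.00023), or 2.71 without stimulated replicate 3. Per length, Dgat1 exceeded Dgat2 by 12.4 to 32.3 times in the unstimulated libraries and by 5.56 to 9.51 times in the stimulated ones.

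Plin2, the droplet coat, was at 142, 129, 146 and 133 CPM unstimulated and at 247, 269.5, 143 and 257 CPM with IL-33. Stimulated replicate 3 lay inside the unstimulated range while the other 3 were well above it. The log2 fold change was 0.74 (SE 0.19, 95% interval 0.31 to 1.16, edgeR adjusted p = 0.0176) and 0.91 (SE 0.06, adjusted p = 1e-06) without stimulated replicate 3. Leaving out stimulated replicate 1, 2 or 4 instead ended the call, with edgeR adjusted p = 0.0506, 0.0543 and 0.0538, as did the TPM scale (0.36, limma adjusted p = 0.257).

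Fabp5, the carrier, was at 45.4, 32.3, 36.2 and 34.6 CPM unstimulated and at 89.7, 93.1, 56.0 and 88.9 CPM with IL-33. All stimulated libraries were above all unstimulated ones, with replicate 3 apart from the rest (log2 fold change 1.14, SE 0.18, 95% interval 0.73 to 1.56, edgeR adjusted p = 0.00204; 1.29 without it). Acsl4, the acyl-CoA synthetase, was at 256, 247, 236 and 269.7 CPM unstimulated and at 465, 457, 401 and 482 CPM with IL-33. These groups were also separate (log2 fold change 0.84, SE 0.08, 95% interval 0.66 to 1.02, edgeR adjusted p = 0.000157; 0.89 without stimulated replicate 3).

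Cpt1a, the entry to mitochondrial oxidation, was the member that fell. It stood at 154, 157, 153 and 167 CPM unstimulated and at 46.6, 53.1, 30.2 and 45.7 CPM with IL-33. The groups were far apart, with a log2 fold change of -1.84 (SE 0.16, 95% interval -2.21 to -1.48, edgeR adjusted p = 0.000112), and -1.70 (SE 0.07, adjusted p = 4.93e-08) without stimulated replicate 3. Per length, Dgat1 was at 0.393 to 0.656 times the level of Cpt1a in the unstimulated libraries and at 8.28 to 12.7 times in the stimulated ones. With the counts unchanged and the longer Cpt1a length, these ratios would be 0.698 to 1.17 and 14.7 to 22.6. The former range puts Dgat1 above Cpt1a in unstimulated replicate 4.

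The uptake genes varied between libraries more than between groups. Cd36, the fatty acid transporter, was at 19.1, 9.08, 8.67 and 8.92 CPM unstimulated and at 15, 8.16, 6.40 and 9.80 CPM with IL-33, so that the groups overlapped (log2 fold change -0.21, SE 0.36, 95% interval -1.04 to 0.61, edgeR adjusted p = 0.668; -0.06 without stimulated replicate 3). Without unstimulated replicate 1 its sign turned (0.20, edgeR adjusted p = 0.614). Lpl, the lipase, was at 41.8, 20.8, 22.2 and 18.3 CPM unstimulated and at 24.1, 11.5, 27.5 and 10.2 CPM with IL-33, with overlap (log2 fold change -0.50, SE 0.40, 95% interval -1.42 to 0.43, edgeR adjusted p = 0.362; -0.75, edgeR adjusted p = 0.0918, without stimulated replicate 3). These intervals leave room for changes in either direction.

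**Figure D2:**
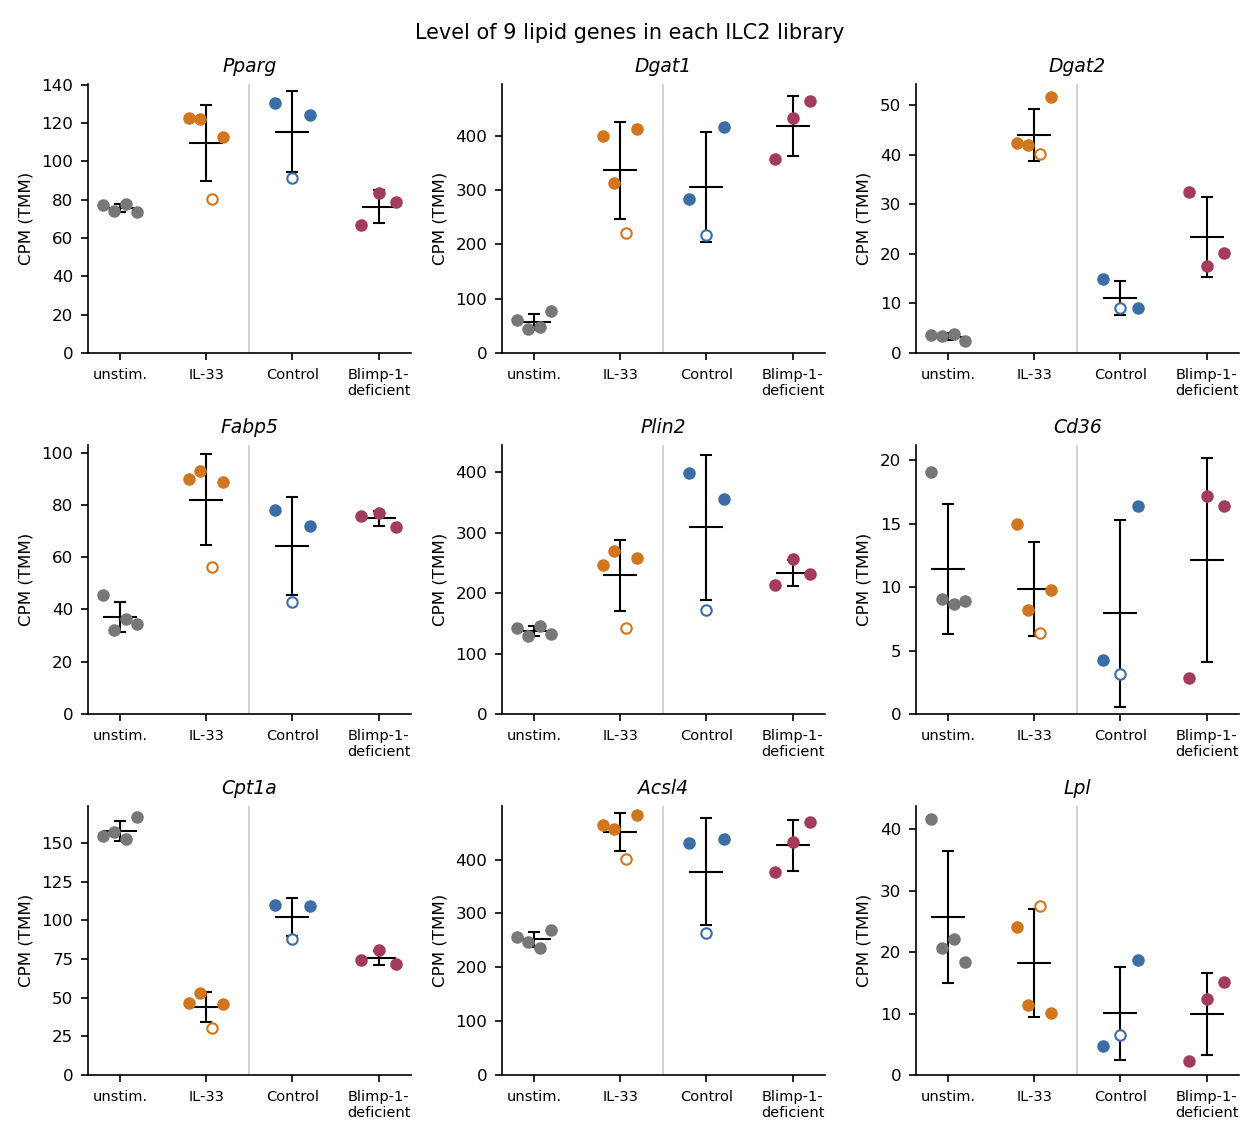
CPM of each of the 9 genes in every library, one panel per gene with its own axis from 0; bars are group mean and SD, and open circles are IL-33 stimulated replicate 3 and Control replicate 2. Dgat1, Dgat2, Fabp5, Acsl4 and Pparg lie higher in all 4 stimulated libraries than in any unstimulated one, and Cpt1a lower.

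Loss of Blimp-1 gave a smaller and less certain picture, which turned on Control replicate 2. Over all 6 libraries none of the 9 genes was called by edgeR, beside 0.45% of 17335 genes higher and 0.306% lower; 3 of the 9 (Pparg, Cpt1a and Dgat2) had an unadjusted p below 0.05, as did 11.9% of all genes tested. DESeq2 called these 3, Dgat2 higher and the other two lower, beside 1.84% higher and 1.82% lower of 30196 genes. Without Control replicate 2, Pparg (1.66-fold), Plin2 (1.60-fold) and Cpt1a (1.44-fold) were lower in Blimp-1-deficient ILC2s and no member was higher, beside 5.72% lower and 8.25% higher of 17968 genes. These 3 stayed called when each Blimp-1-deficient library was left out as well.

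Pparg was at 130.8, 91.3 and 124.5 CPM in Control replicates 1 to 3 and at 67.0, 83.5 and 78.9 CPM in the Blimp-1-deficient ones. In CPM every Blimp-1-deficient library was below every Control, but in rescaled TPM Control replicate 2 (54.6 TPM) was below all of them (99.1 to 114 TPM). The log2 fold change was -0.60 (SE 0.16, 95% interval -0.99 to -0.21, edgeR adjusted p = 0.206) and, without Control replicate 2, -0.73 (SE 0.09, 95% interval -0.94 to -0.52, edgeR adjusted p = 0.00418). With Control replicate 1 or 3 or any 1 Blimp-1-deficient library left out in its place, the edgeR adjusted p was 0.4 to 0.732.

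Cpt1a was at 109.8, 88.2 and 109.0 CPM in Controls and at 74.5, 80.8 and 71.8 CPM in Blimp-1-deficient ILC2s, without overlap in CPM, whereas in rescaled TPM Control replicate 2 (36.2 TPM) was below them all (67.1 to 75.9 TPM). Its log2 fold change was -0.44 (SE 0.11, 95% interval -0.71 to -0.16, edgeR adjusted p = 0.19), and -0.52 (SE 0.07, 95% interval -0.68 to -0.37, edgeR adjusted p = 0.00428) without Control replicate 2. Plin2 was at 398, 172 and 356 CPM in Controls and at 213, 256 and 232 CPM in Blimp-1-deficient ILC2s. Here Control replicate 2 was the lowest of all 6, and the other Controls the highest. The log2 fold change of Plin2 was -0.41 (SE 0.30, 95% interval -1.13 to 0.32, edgeR adjusted p = 0.678) and, without Control replicate 2, -0.68 (SE 0.09, 95% interval -0.90 to -0.47, edgeR adjusted p = 0.00515). On the deposited TPM the log2 fold changes of all 9 genes were above 0, as was the median of all genes (1.28). After rescaling without the 7 loci that median was 0.416, Pparg was at -0.12, and the others were above 0.

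Dgat2 was at 15, 9.01 and 9.14 CPM in Controls and at 32.6, 17.5 and 20.1 CPM in Blimp-1-deficient ILC2s. The groups did not overlap, but Blimp-1-deficient replicate 1 was far above the other two. The log2 fold change was 1.06 (SE 0.31, 95% interval 0.31 to 1.80, edgeR adjusted p = 0.238), and 0.97 (SE 0.31, edgeR adjusted p = 0.0802) without Control replicate 2. Dgat1 was at 284, 217 and 415 CPM in Controls and at 357, 432 and 464 CPM without Blimp-1. These overlapped, with a log2 fold change of 0.45 (SE 0.25, 95% interval -0.15 to 1.05, edgeR adjusted p = 0.569), and of 0.27 (edgeR adjusted p = 0.319) without Control replicate 2.

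For Fabp5 and Acsl4 the Blimp-1-deficient libraries and the 2 deep Controls lay close together. Fabp5 was at 77.9, 42.9 and 71.8 CPM in Controls and at 75.8, 77.0 and 71.6 CPM without Blimp-1. Its log2 fold change without Control replicate 2 was 0.01, with a 95% interval of -0.15 to 0.17 (edgeR adjusted p = 0.945), and over all libraries it was 0.20 (95% interval -0.30 to 0.71, edgeR adjusted p = 0.775). Acsl4 was at 432, 263 and 438 CPM in Controls and at 377, 432 and 471 CPM without Blimp-1. Without Control replicate 2 its log2 fold change was -0.02, with a 95% interval of -0.24 to 0.20 (edgeR adjusted p = 0.913), and over all libraries it was 0.17 (95% interval -0.35 to 0.70, edgeR adjusted p = 0.822).

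Cd36 was at 4.26, 3.17 and 16.4 CPM in Controls and at 2.86, 17.2 and 16.4 CPM in Blimp-1-deficient ILC2s. High and low libraries occurred in both groups, and the 95% interval of the log2 fold change ran from -1.45 to 2.52 (estimate 0.54, edgeR adjusted p = 0.863; 0.24 without Control replicate 2). Lpl was at 4.71, 6.58 and 18.8 CPM in Controls and at 2.33, 12.4 and 15.1 CPM without Blimp-1. It overlapped in the same way (-0.05, 95% interval -1.91 to 1.82, edgeR adjusted p = 0.996; -0.23 without Control replicate 2). Control replicate 2 holds only 13 counts of Cd36 and 27 of Lpl.

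**Figure D3:**
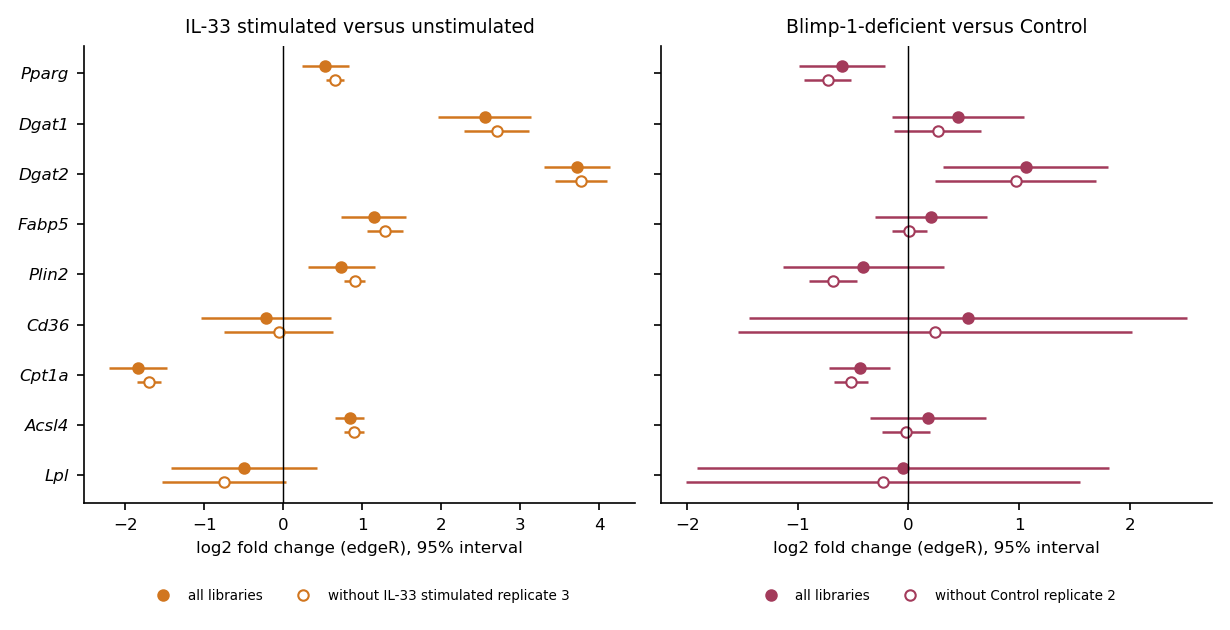
Log2 fold change (edgeR) with its 95% interval for the 9 genes in both comparisons, over all libraries (filled) and without the library that stands apart (open). In the right panel the intervals of Pparg, Plin2 and Cpt1a narrow and lie below 0 without Control replicate 2, at -0.73, -0.68 and -0.52, while those of Cd36 and Lpl span 0 in both panels.

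Cd36 and Lpl were set beside the markers of macrophages and monocytes, library by library. Within the unstimulated group, replicate 1 had the highest Cd36 (19.1 CPM), Lpl (41.8 CPM) and summed level of the 15 markers (493 CPM, against 213 to 301 CPM in the other 3). In the stimulated group replicate 1 had the highest Cd36 and marker sum (442 CPM), but Lpl was highest in replicate 3 (27.5 CPM at a marker sum of 323 CPM), the library with the lowest Cd36 (6.40 CPM). Among Controls, replicate 3 was highest for both genes and for the sum (608 CPM, against 111 and 159 CPM), although replicate 2 had less Cd36 than replicate 1 at a higher sum, and among Blimp-1-deficient libraries replicate 1 was lowest for all of them (95.7 CPM, against 326 and 439 CPM). Most of the sum came from Chil3 and Lyz2, at group means of 165 to 195 and 48.4 to 96.3 CPM. Of the defining macrophage genes, C1qa and C1qb were at 0 in 3 of 4 libraries of each group of the stimulation experiment, Marco was at 0 in 1 Control, and Adgre1 and Csf1r were above 0 in all libraries, at 1.12 to 5.94 and 0.486 to 27.2 CPM. The part of macrophages in the levels of Cd36 and Lpl was not tested. Pparg lay between 73.4 and 77.9 CPM in the unstimulated libraries, and Control replicates 1 and 3, which differed most in the marker sum, had 130.8 and 124.5 CPM. Stimulated replicate 1 had the highest sum and the highest Pparg of its group (122.6 CPM). Its lowest sum was in replicate 4 (173 CPM), but its lowest Pparg in replicate 3 (80.6 CPM). Blimp-1-deficient replicate 1 had the lowest sum and the lowest Pparg of its group (67.0 CPM). The highest sum of that group was in replicate 3 (439 CPM), but the highest Pparg in replicate 2 (83.5 CPM).

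**Figure D4:**
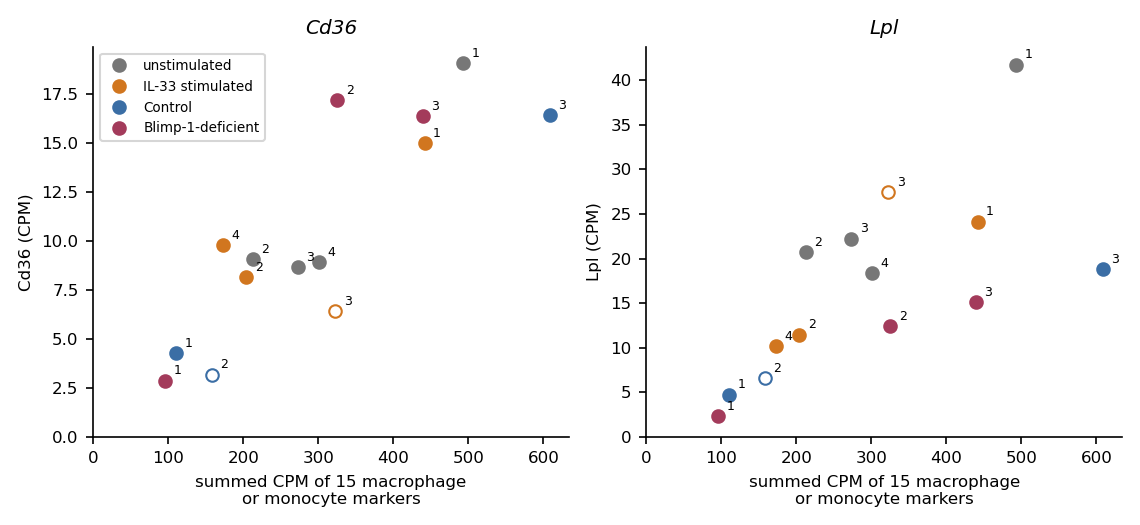
CPM of Cd36 (left) and Lpl (right) in each library against the summed CPM of 15 macrophage or monocyte markers; numbers are replicates and open circles are IL-33 stimulated replicate 3 and Control replicate 2. The lowest values of both genes lie at marker sums of 95.7 to 159 CPM, in Blimp-1-deficient replicate 1 and Control replicates 1 and 2.

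The wider pathway was read from 8 lists with 109 further genes. With IL-33, 83 were tested, of which 11 rose (13.3%) and 13 fell (15.7%; edgeR, adjusted p below 0.05), close to the 16.2% and 16.1% of all genes, and the lists' medians lay between -0.34 and 0.32 on the log2 scale, against 0.06 for all genes. Without stimulated replicate 3 the counts were 23 (27.4%) and 22 (26.2%) of 84, beside 27.5% and 29.7% of all genes. The genes given below as higher or lower with IL-33 over all libraries were called in the same direction without that library, whereas the counts of several lists changed. Among partners and relatives of PPARG (11 tested, 3 higher and 3 lower), Ppard, the related receptor, rose from 21.3 ± 2.37 to 34.7 ± 3.56 CPM (SD, n = 4 each; log2 fold change 0.70, edgeR adjusted p = 0.00267). The pairing receptors Rxra (-0.66, edgeR adjusted p = 0.00483) and Rxrg (-1.91, edgeR adjusted p = 0.0153; -2.58 without stimulated replicate 3) fell, as did the corepressor Ncor1 (-0.41, edgeR adjusted p = 0.00666). Of 13 tested textbook PPARG targets of fat cells and macrophages, 1 rose (Acsl1, an acyl-CoA synthetase, 0.32, edgeR adjusted p = 0.0346) and 2 fell (Ucp2, a mitochondrial carrier, -0.54, edgeR adjusted p = 0.0491, and Fabp4, a fatty acid carrier of fat cells, -1.12, edgeR adjusted p = 0.0311). Fabp4, with a mean of 3.34 CPM, is named after its value was seen. Without stimulated replicate 3 the counts of these targets were 3 higher and 5 lower of 14.

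In triglyceride synthesis 3 of 13 genes tested rose and 3 fell with IL-33 (23.1% each, beside 16.2% and 16.1% of all genes), with the same counts without stimulated replicate 3 (beside 27.5% and 29.7%). Agpat4, an acyltransferase, rose by 1.22 on the log2 scale (edgeR adjusted p = 0.000206), while the phosphatidate phosphatases Lpin2 (-1.14, edgeR adjusted p = 0.000604) and Lpin1 (-0.88, edgeR adjusted p = 0.000451) and the cholesterol esterifying enzyme Soat1 (-0.76, edgeR adjusted p = 0.0067) fell. Of 8 droplet genes tested, 1 rose (3 rose and 2 fell of 9 without stimulated replicate 3): Hilpda, an inhibitor of lipolysis found on droplets, went from 22.7 ± 3.70 to 83.5 ± 23.3 CPM (1.88, edgeR adjusted p = 0.000573). Of 6 lipolysis genes tested, Faf2 (0.16) had the lowest edgeR adjusted p (0.0883); without stimulated replicate 3, Mgll, which cleaves monoglyceride, fell by 1.59 on the log2 scale (edgeR adjusted p = 7.84e-06) and Pnpla2, the first triglyceride lipase, rose by 0.37 (edgeR adjusted p = 0.000285), both named after their values were seen. Slc27a6, a fatty acid transport protein, fell by 2.19 on the log2 scale (edgeR adjusted p = 0.000372), from 18.9 ± 2.82 to 4.12 ± 1.11 CPM, with a log2 fold change of -2.01 without stimulated replicate 3. Among 9 acyl-CoA synthetases and related genes, Acsl1 and Acbd3 (0.37, edgeR adjusted p = 0.0438) rose and Dbi, which binds acyl-CoA, fell (-0.30, edgeR adjusted p = 0.0354).

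Cpt1a fell further than any other gene of mitochondrial fatty acid oxidation called in this comparison. Of the 18 others tested, 2 rose and 3 fell (11.1% and 16.7%, beside 16.2% and 16.1% of all genes), and without stimulated replicate 3, 6 rose and 4 fell (33.3% and 22.2%, beside 27.5% and 29.7%). Acaa2 (-0.97, edgeR adjusted p = 0.000265), Hadh (-0.82, edgeR adjusted p = 0.00766) and Decr1 (-0.62, edgeR adjusted p = 0.0046), enzymes of the oxidation cycle and its side steps, fell, and Hadhb, a subunit of the trifunctional protein, rose by 0.50 on the log2 scale (edgeR adjusted p = 0.00037). The median of the list was 0.01.

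In the Blimp-1 experiment 1 of 86 tested genes of these lists (1.16%) was called lower over all libraries by edgeR, beside 0.306% of all genes. DESeq2 called 2 higher and 6 lower of 105, beside 1.84% higher and 1.82% lower of 30196 genes. The gene that edgeR called was Abca1, the cholesterol exporter, which is a PPARG and LXR target in macrophages: it fell from 35.6 ± 6.75 to 11.9 ± 1.08 CPM (SD, n = 3 each; log2 fold change -1.57, SE 0.16, edgeR adjusted p = 0.0239). No Control, at 31.2 to 43.4 CPM, came near a Blimp-1-deficient library, at 11.1 to 13.1 CPM. With Control replicate 1 or 3 or any 1 Blimp-1-deficient library left out, no gene of these lists was called by edgeR, and without Control replicate 2 the value was -1.40 (edgeR adjusted p = 0.000418).

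Without Control replicate 2, 17 of 87 were called, 6 higher (6.9%) and 11 lower (12.6%), beside 8.25% and 5.72% of all genes. Textbook PPARG targets made 4 of the falls, among them the exporter Abcg1 (-0.69, edgeR adjusted p = 0.0064) and the malic enzyme Me1 (-0.83, edgeR adjusted p = 0.00342) beside Abca1, and 1 rise, Angptl4, an inhibitor of LPL (0.50, edgeR adjusted p = 0.0178). The median of that list's 14 tested genes was -0.14, against 0.01 for all genes. In mitochondrial oxidation (18 tested) 4 fell, with Hadh at -0.58 (edgeR adjusted p = 0.00578), Acadm at -0.50 (edgeR adjusted p = 0.00322) and Acaa2 at -0.41 (edgeR adjusted p = 0.0206), and Decr1 rose by 0.84 (edgeR adjusted p = 0.00246). Agpat4 (-0.54, edgeR adjusted p = 0.012), Soat1 (-0.45, edgeR adjusted p = 0.0124) and the synthetase Acsl3 (-0.62, edgeR adjusted p = 0.0269; 2 of the 10 genes of its list rose and 1 fell) fell, and Rxra rose by 0.33 (edgeR adjusted p = 0.0249). Among the 9 droplet genes tested Hilpda came nearest to the threshold (-0.56, edgeR adjusted p = 0.0602), and among the 7 lipolysis genes Abhd5 did, an activator of lipolysis (-0.22, edgeR adjusted p = 0.167); both were named after their values were seen.

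**Figure D5:**
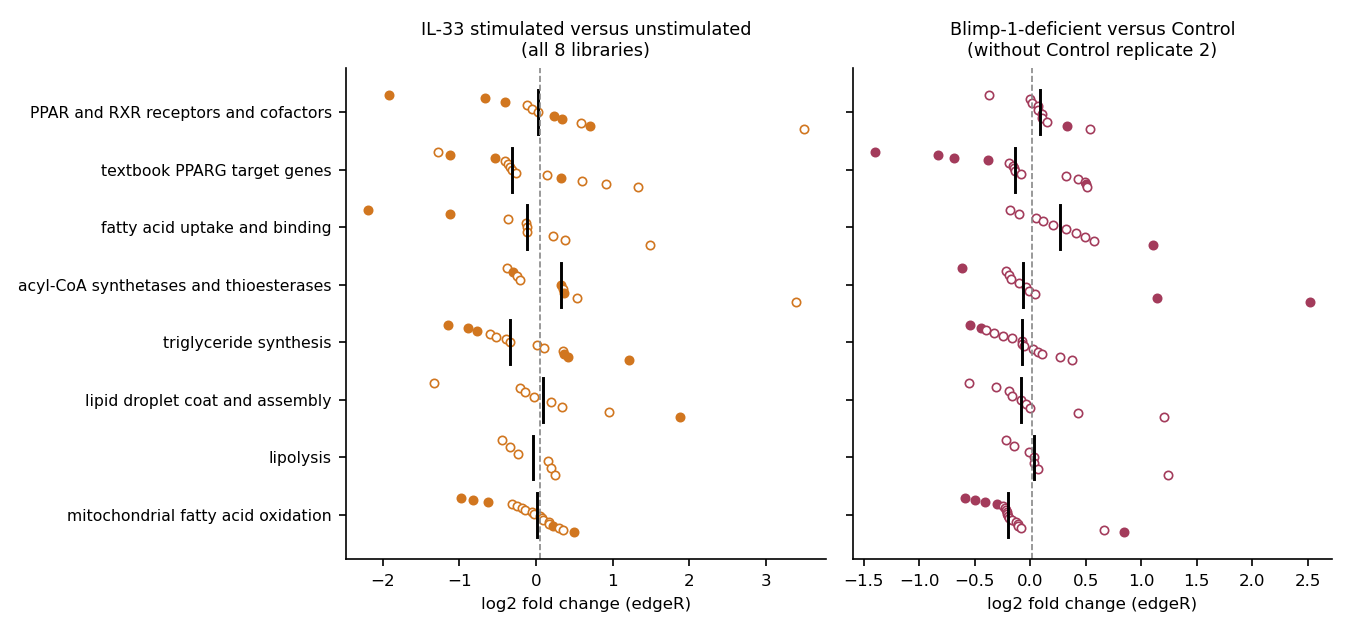
Log2 fold change (edgeR) of each tested gene of 8 lipid lists, which leave out the 9 genes above; filled points have an adjusted p below 0.05, black lines are list medians and dashed lines the median of all genes. The left panel shows IL-33 over all 8 libraries and the right one loss of Blimp-1 without Control replicate 2, where 6 points are called higher and 11 lower.

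Likeness to Pparg was measured as the root mean square difference in log2 CPM, after each gene was centred within each experiment, over 13 libraries (all but Control replicate 2) and 9850 other genes with at least 5 CPM on average in both experiments. The 5 nearest were Ipmk, an inositol phosphate kinase (0.111), Phgdh, the first enzyme of serine synthesis (0.112), Plin2 (0.112), Il2ra, the IL-2 receptor alpha chain (0.113), and Psat1, the next enzyme of serine synthesis (0.121). Plin2 was thus the third nearest of 9850, whereas the next of the 9 genes were Acsl4 at place 2188 and Fabp5 at place 4161, and Dgat2 was at place 9776. The points share libraries, and IL-33 stimulated replicate 3 is low for all 5. Since likeness was taken over these same libraries, their fold changes add nothing to it.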

How the data were processed

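The authors trimmed 75-base paired reads of SMART-seq v4 libraries, used HISAT2 for alignment (GRCm38) and Subread for counting, and deposited raw counts, gene lengths and TPM for each experiment; strand is not stated. Deposited TPM equal counts over length, scaled to the same total. Counts were tested with edgeR 4.0.16 (TMM, filterByExpr, quasi-likelihood, not robust) in R 4.3.3, per experiment, with no block, two-sided, and adjusted by Benjamini-Hochberg over all genes tested (threshold 0.05); the script was tested on simulated data. CPM use TMM factors without a prior count. Alternatives were DESeq2 1.42.0, limma 3.58.1 on log2(TPM + 1) and log2(TPM + 0.1), other scalings and filters, a block and left-out libraries. TPM rescaled without 7 loci, in limma, the longer Cpt1a length and dropping 2 libraries at once were added after seeing the data. Members and lists were chosen with earlier results of these data known. All 9 genes are named, with up to 4 called genes per list of at least 5 mean CPM, ordered by change, and the 5 genes nearest Pparg. The ATAC-seq was not analysed here.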

Additional observations from a re-analysis of the deposited data

Results flagged for a closer look

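Among 18 sets of 4 libraries, 3 held a library far from the other 3; chance marks about 1 in 20 such sets. Unstimulated replicate 1 had 19.1 CPM of Cd36, against 8.67 to 9.08 CPM in the others, and 41.8 CPM of Lpl, against 18.3 to 22.2 CPM. The same library had the highest macrophage or monocyte marker sum of its group (493 CPM). IL-33 stimulated replicate 3 had 56.0 CPM of Fabp5, against 88.9 to 93.1 CPM in the others, and was the shallowest library of its experiment.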

How the results depend on the processing

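With IL-33, Dgat1, Dgat2, Fabp5, Acsl4 and Cpt1a kept direction and call under all 17 alternatives. Pparg lost its call under 5 (0.18 to 0.52) and Plin2 under 7 (0.36 to 0.70). The members called were 5 to 7. Cd36 ranged from -0.49 to 0.20 with 1 library left out, the latter without unstimulated replicate 1. The wider list had 14 genes called without a filter and 15 to 45 with a library left out (main 24), and all genes 3672 to 8994 (main 4992); library size alone split the calls into 1805 higher and 3691 lower, and limma on log2(TPM + 1) into 990 and 4555.

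In the Blimp-1 experiment, leaving out 1 library gave 0 to 3 members called (main 0), 0 to 17 genes of the wider list (main 1) and 0 to 2510 of all genes (main 131). Each high value is without Control replicate 2. DESeq2 called 3, 8 and 1106, and without Control replicate 2 it called 3, 26 and 3562. With a Blimp-1-deficient library left out besides Control replicate 2, the counts were 3, 12 to 16 and 1482 to 1730. A mean count of at least 50 gave 3 of the wider list and 256 of all genes, and library size alone gave 0 of the wider list. Limma called 0 of the wider list on any TPM, and of all genes 0 with log2(TPM + 1), 1 with log2(TPM + 0.1) and 2 after rescaling; the median log2 fold change was then 1.28, 1.69 and 0.416, and 0.446 with library size alone.

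Signs turned as follows. On log2(TPM + 1) and log2(TPM + 0.1), Pparg was 1.08 and 1.19, Plin2 1.39 and 1.46, Cpt1a 1.19 and 1.33, and Lpl 0.55 and 1.24. Less the median of all genes, Pparg was -0.20 and -0.50, Plin2 0.10 and -0.23, Cpt1a -0.096 and -0.35, and Lpl -0.73 and -0.45. After rescaling, Plin2 was 0.15, Cpt1a 0.035 and Lpl 0.245; less the median they were -0.27, -0.38 and -0.17. Lpl was 0.28 with library size alone, and -0.47 to 0.86 with 1 library left out, -0.66 to 0.24 with 2. With 1 library left out Fabp5 was 0.0092 to 0.38, Cd36 0.20 to 1.66 and Acsl4 -0.019 to 0.30. Without Control replicate 2, Acsl4 was -0.019 by edgeR and -0.030 by DESeq2, where Fabp5 was -0.0023. With 2 libraries left out, Fabp5 reached -0.0062, Cd36 -0.092 and -0.036, and Acsl4 -0.023 and -0.089. The cause of these shifts was not tested.

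With the replicate number as a block (replicate block), 6 members were called with IL-33, without Plin2 (0.70, edgeR adjusted p = 0.056), with 16 of the wider list and 3700 of all genes, and 0, 0 and 0 in the Blimp-1 experiment. Deviations of same-numbered libraries correlated at -0.145 to 0.282 and -0.134 to 0.122, not every library correlated best with its own number, and the design text gives separate mice, so the numbers were not taken as pairs.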
